A study of Mus musculus with 7 samples.

Results

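The genes described are 10 genes of the cartilage matrix and its regulation, chosen by name: Acan, Comp, Matn1, Matn3, Sox9, Ihh, Hapln1, Chad, Epyc and Snorc. They were looked up by symbol among the 27179 Entrez genes of the count files, where 9 were found, and Snorc was found as 3110079O15Rik (Entrez gene 73234), the older symbol that RefSeq lists as its synonym. RNA-sequencing had been performed on femora of 12-week-old female C57BL/6 mice, of which 3 were Dmp1Cre.EfnB2f/f and 4 were Dmp1Cre controls. In the former, Cre driven by a Dmp1 promoter fragment acted on floxed alleles of Efnb2, the gene of EphrinB2, in late osteoblasts and osteocytes, and the controls, cousin-bred and in 1 case from the same parents, carried the same Dmp1Cre transgene without floxed alleles. For all 7 libraries the bone ends had been cut off and the marrow washed out, but how far from the growth plate the cuts lay is not given in the sources used here. Other cells of the shaft and its surface remain in such a sample, and the Cre is not active in all of them. Whole tissue was sequenced, so fewer cells of a type and less RNA per cell cannot be told apart.

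Library totals ran from 18119947 to 19119250 counts in Dmp1Cre.EfnB2f/f and from 17245556 to 22075778 in Dmp1Cre. The targeted gene, Efnb2, had 17.03, 12.5 and 11.2 CPM (reads per 1e6 counted reads, TMM-normalized) in the Dmp1Cre.EfnB2f/f-labelled libraries and 8.08, 7.54, 6.13 and 6.05 CPM in Dmp1Cre. The groups did not overlap, and the Dmp1Cre.EfnB2f/f-labelled libraries were the higher ones (log2 fold change 0.96, standard error [SE] 0.21, adjusted p = 0.511 by edgeR quasi-likelihood with Benjamini-Hochberg correction). DESeq2 and the limma pipeline of the study, run without its day block, called it, with adjusted p-values of 0.0331 and 0.0162. A deletion of part of the gene in some cell types need not lower whole-gene counts of the tissue. The labels could therefore not be checked here, and libraries are named by them throughout. By PCR of the targeted region in sorted cells of other mice, the study reported Efnb2 deleted in osteocytes and kept in non-osteocytic cells. The counts cover the whole gene, and the deleted part cannot be told apart in them. The bone markers Col1a1, Bglap, Dmp1 and Sost were present in every library. Control 1 (replicate 1 of Dmp1Cre) stood apart from the other libraries in many of the genes described here, so the genotype comparison of the 10 genes and of the cartilage lists is given with and without it.

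Cartilage resists load because aggrecan, a large proteoglycan encoded by Acan, swells within a mesh of type II, IX and XI collagen. Link protein (Hapln1) fixes aggrecan to hyaluronan, and cartilage oligomeric matrix protein (Comp), the matrilins (Matn1 and Matn3) and chondroadherin (Chad) bridge collagen, proteoglycan and cell surface. Epiphycan (Epyc) is a small leucine-rich proteoglycan of the growth plate and Snorc a small membrane proteoglycan of chondrocytes. Sox9 is the transcription factor that sets the chondrocyte fate, and Indian hedgehog (Ihh) is the signal that prehypertrophic chondrocytes send to pace growth plate maturation together with PTHrP. Comp is also a protein of tendon and ligament, and Chad is known from bone and tendon as well.

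The promoter windows of 7 of the 10 genes were found in the RefSeq set for GRCm38.p6, 8 windows in all, since Epyc has more than one start. Entries for Comp, Sox9 and Snorc are missing. Each window covers 250 bases before a transcription start and 50 after it. Below are those of Acan and Chad, matrix genes with counts in all libraries whose levels are given next, and of Epyc, which had at most 1 count outside control 1. All lie on the plus strand and read 5′ to 3′. Capitals mark the SOX core letters ACAAAG or ACAATG and the TATA letters TATAAA, searched on both strands. A reverse-strand match of ACAATG reads CATTGT.

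Acan, chr7:79052976-79053275: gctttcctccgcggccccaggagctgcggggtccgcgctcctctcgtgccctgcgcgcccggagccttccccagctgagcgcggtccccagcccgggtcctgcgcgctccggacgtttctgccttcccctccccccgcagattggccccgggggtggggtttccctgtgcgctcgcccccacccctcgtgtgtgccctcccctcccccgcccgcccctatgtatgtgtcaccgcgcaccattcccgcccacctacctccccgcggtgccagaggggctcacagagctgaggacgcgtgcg

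Chad, chr11:94564797-94565096: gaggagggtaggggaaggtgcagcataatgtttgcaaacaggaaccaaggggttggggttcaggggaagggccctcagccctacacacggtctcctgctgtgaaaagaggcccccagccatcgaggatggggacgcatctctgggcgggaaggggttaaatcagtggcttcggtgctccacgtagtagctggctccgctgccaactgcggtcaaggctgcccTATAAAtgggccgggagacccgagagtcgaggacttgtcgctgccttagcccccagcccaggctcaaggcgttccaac

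Epyc, chr10:97646853-97647152: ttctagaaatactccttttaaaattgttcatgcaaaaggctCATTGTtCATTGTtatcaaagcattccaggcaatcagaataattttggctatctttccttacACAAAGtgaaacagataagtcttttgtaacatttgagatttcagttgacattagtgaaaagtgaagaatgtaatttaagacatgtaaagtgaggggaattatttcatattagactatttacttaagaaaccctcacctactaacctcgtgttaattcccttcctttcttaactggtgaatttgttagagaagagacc

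The windows differed in make-up. Bases G and C made up 74.0% of the Acan window, 61.0% of the Chad window and 32.3% of this Epyc window. The TATA letters occurred in 1 of the 8 windows, that of Chad, where they begin 28 bases before the start, and in 13.6% of all 32851 promoter windows. The SOX core letters occurred in 2 of the 8 windows, both of Epyc, with 3 matches in the one shown, and in 28.6% of all windows. A match describes letters in this window and no binding was measured.

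Comp, Chad and Acan had the highest levels of the 10 genes. Per length, the median over the 7 libraries was 9.27 RPKM (CPM per kilobase of gene) for Comp, 7.04 for Chad and 1.09 for Acan. It was 0.275 for Sox9, 0.184 for Hapln1, 0.114 for Snorc, 0.103 for Ihh, 0.0835 for Matn1, 0.0333 for Matn3 and 0 for Epyc. Outside control 1 the ranges of Comp (5.81 to 20.5 RPKM) and Chad (4.58 to 11.3 RPKM) overlapped, and both lay above that of Acan (0.162 to 2.09 RPKM). The ranges of Sox9 and Hapln1 overlapped as well, as did those of Ihh and Matn1.

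**Figure D1:**
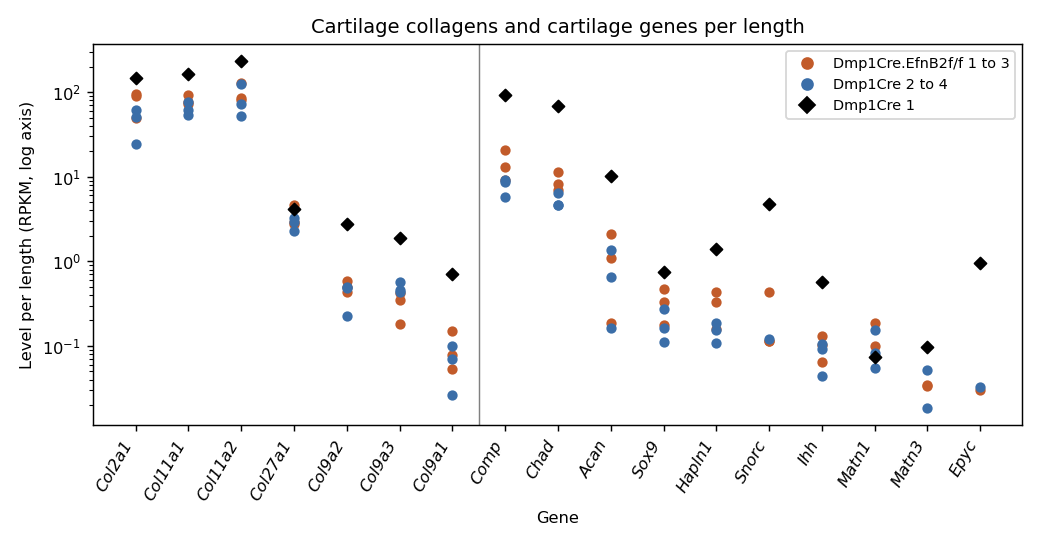
Level per length (RPKM, log axis) of 7 cartilage collagen genes, left of the line, and of the 10 cartilage genes, right of it, with 1 point per library and values of 0 not drawn. Col2a1, Col11a1 and Col11a2 lie above 20 RPKM in every library, while Comp and Chad lie between 4.58 and 93.2 RPKM and the black diamond of control 1 is the highest point for 9 of the 10 cartilage genes.

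Comp (Entrez gene 12845, chromosome 8 of GRCm38, 70373548 to 70382066) had the most counts of the group. Its level was 22.2, 31.8 and 49.8 CPM in Dmp1Cre.EfnB2f/f-labelled libraries 1 to 3 and 226, 20.8, 14.1 and 22.5 CPM in controls 1 to 4. Control 1 was far above the rest, at 10.1 times the median of the other 6 libraries and 4.54 times the next highest, and the groups overlapped. The mean was 34.6 ± 14.0 CPM (SD, n = 3), compared with 70.9 ± 104 CPM (SD, n = 4). On the log2 scale the fold change was -1.03 (SE 0.95, adjusted p = 0.641 by edgeR quasi-likelihood with Benjamini-Hochberg correction).

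Chad (Entrez gene 12643, chromosome 11, 94565047 to 94569127) was likewise highest in control 1. It had 11.6, 13.7 and 18.7 CPM in the Dmp1Cre.EfnB2f/f-labelled libraries and 112, 10.6, 7.57 and 7.75 CPM in the controls. Control 1 was 10.1 times the median of the other 6, and controls 2 to 4 lay below every Dmp1Cre.EfnB2f/f-labelled library. The log2 fold change was -1.23 (SE 0.97, adjusted p = 0.595 by the same edgeR test). Chad lies within the span of Acsf2 on the other strand, with 0 exon bases shared.

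Acan (Entrez gene 11595, chromosome 7, 79053226 to 79115099) varied most of the 5 genes that could be tested. It had 1.37, 7.98 and 15.4 CPM in the Dmp1Cre.EfnB2f/f-labelled libraries and 74.5, 1.19, 4.73 and 10.1 CPM in the controls. Low and high libraries occurred in both genotypes, and even without control 1 the highest library had 12.9 times the level of the lowest. The SD of log2 CPM was 1.75 among the Dmp1Cre.EfnB2f/f-labelled libraries and 2.44 among the controls, where the median over all genes tested was 0.172 and 0.376. The log2 fold change was -1.46 (SE 1.25, adjusted p = 0.624 by edgeR quasi-likelihood with Benjamini-Hochberg correction).

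Hapln1 (Entrez gene 12950, chromosome 13, 89540529 to 89611832), which ties aggrecan to hyaluronan, had 0.793, 2.19 and 1.65 CPM in the Dmp1Cre.EfnB2f/f-labelled libraries. In the controls it had 6.996, 0.543, 0.780 and 0.931 CPM, so that control 1 was again the highest, at 8.12 times the median of the other 6 libraries. Its log2 fold change was -0.59 (SE 0.88, adjusted p = 0.768 by the same edgeR test). In raw reads this was 10 to 42 counts outside control 1 and 142 in it.

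Sox9 (Entrez gene 20682, chromosome 11, 112782210 to 112787757) was the regulator with enough counts for a test. It had 26, 14 and 39 counts in the Dmp1Cre.EfnB2f/f-labelled libraries and 63, 21, 12 and 9 in the controls, or 1.37, 0.730 and 1.96 CPM against 3.10, 1.14, 0.668 and 0.465 CPM. Control 1 was 3.32 times the median of the other 6, a smaller factor than those of Acan, Comp, Chad and Hapln1. The means hardly differed, and the log2 fold change was 0.00 (SE 0.65, adjusted p = 0.999 by edgeR quasi-likelihood with Benjamini-Hochberg correction). Its sign turned with small changes of the scaling, and it has no direction here.

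The other 5 genes did not reach 0.65 CPM in 3 libraries and were not tested. Ihh (chromosome 1, 74945315 to 74951672) had 6, 3 and 5 counts in the Dmp1Cre.EfnB2f/f-labelled libraries and 28, 2, 4 and 5 in the controls. Snorc (chromosome 1, 87470201 to 87475482) had 1, 1 and 4 counts against 45, 0, 1 and 0. Epyc (chromosome 10, 97644068 to 97681908) had 0, 1 and 0 counts against 33, 0, 1 and 0. In Snorc and Epyc nearly all reads came from control 1, and in Ihh it had 28 where the other libraries had 2 to 6. Epyc shares 1041 exon bases with Gm10754 on the other strand, and the strand setting of the counting is not stated, so reads could come from either.

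The matrilins had few reads in any library. Matn1 (chromosome 4, 130944385 to 130955476) had 7, 0 and 4 counts in the Dmp1Cre.EfnB2f/f-labelled libraries and 3, 2, 3 and 6 in the controls, and it was the 1 gene of the 10 in which control 1 was not the highest library. Matn3 (chromosome 12, 8947929 to 8972028) had 0, 2 and 2 counts against 6, 0, 1 and 3. With so few reads, a difference of either gene between libraries was not detectable at this depth.

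**Figure D2:**
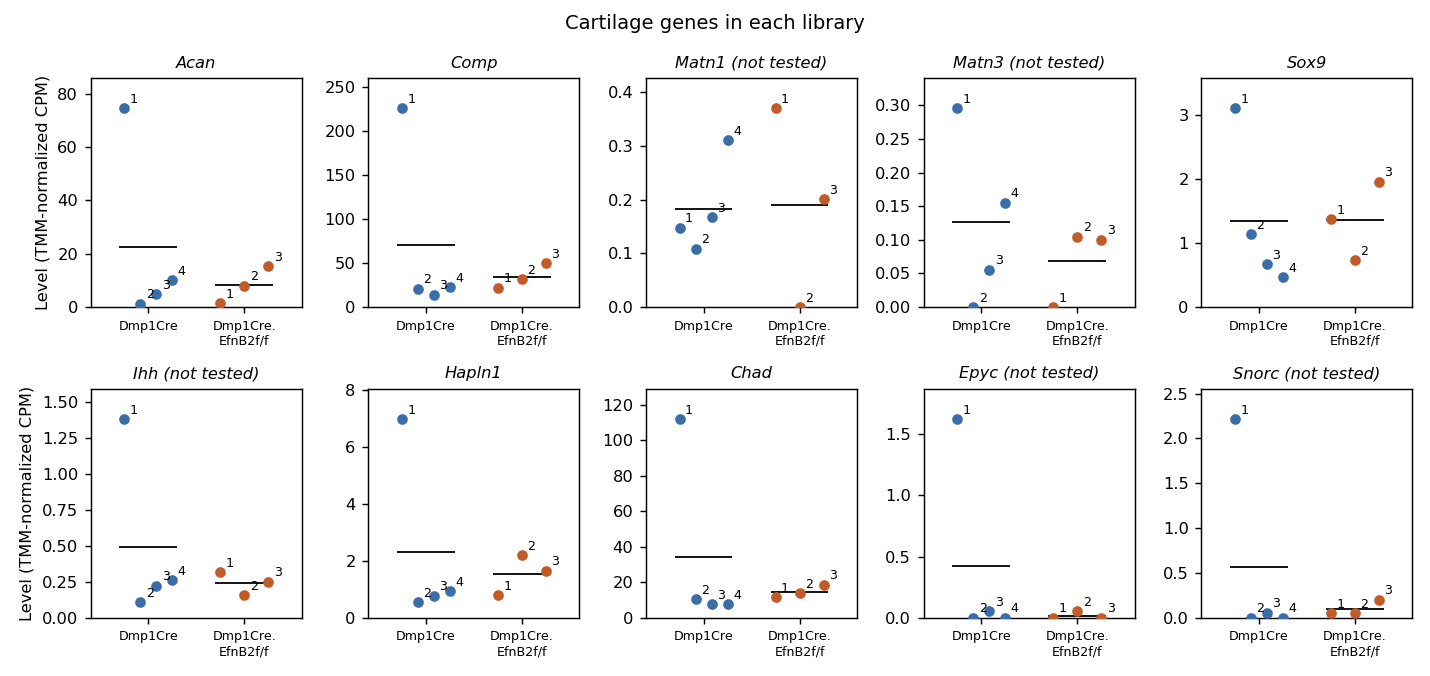
Level (TMM-normalized CPM, linear axis from 0) of each of the 10 cartilage genes in 4 Dmp1Cre and 3 Dmp1Cre.EfnB2f/f libraries, with the replicate number beside each point and the group mean as a line. Control 1 is the highest point in 9 panels and its distance from the rest sets the mean of the controls, for example 226 CPM against 14.1 to 22.5 CPM in the other controls for Comp.

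Of the 5 genes tested, 0 passed an adjusted p-value of 0.05, and over all 15098 genes tested the share was also 0% (edgeR quasi-likelihood with Benjamini-Hochberg correction). None of the 5 had an unadjusted p-value below 0.05, against 9.66% of all genes. DESeq2 and the limma pipeline of the study without its day block also called 0 of them, though DESeq2 gave no adjusted p for Comp and Chad. Over all genes DESeq2 called 72 and that limma pipeline 2246, or 14.9%, and the latter called 0 to 4 genes in each of the lists described below. The groups overlapped in all 10 genes. Over all genes tested they did not overlap in 11.3%, with the Dmp1Cre.EfnB2f/f-labelled libraries above in 5.05% and below in 6.3%. The two-sided exact permutation p ran from 0.514 for Matn3 to 1.00 for Sox9 and Chad over the 10 genes. The smallest that 3 against 4 allow is 0.0286. The test compares mean CPM, in which control 1 outweighs the other libraries for genes such as Comp and Chad. For these genes p could not come near that limit, so it says little about a difference among the other libraries. A negative log2 fold change was found in 4 of the 5 genes and in 48.7% of all genes, with a median of -1.03 over the 5 and 0.01 over all.

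That direction rested on 1 library. Without control 1 the log2 fold change was positive in 5 of 5 genes and in 50.6% of all genes, with a median of 0.84 over the 5 and 0.01 over all. The sign went from negative to positive in Acan, Comp, Chad and Hapln1, as it did in 4.94% of all genes. It became 0.63 (SE 0.89) for Acan, 0.85 (SE 0.32) for Comp, 0.77 (SE 0.25) for Chad, 1.03 (SE 0.43) for Hapln1 and 0.84 (SE 0.48) for Sox9. At an unadjusted p-value below 0.05 there were now 3 of the 5, Chad (0.0152), Comp (0.0308) and Hapln1 (0.0462, edgeR), against 11.3% of all genes. Control 1 was singled out by its values in these same genes, and leaving it out lowers their control mean and spread. These p-values therefore describe the remaining libraries and are no independent test of genotype. Comp and Chad also moved together and are not separate results. None of the 5 passed the adjustment, with adjusted p-values from 0.397 for Chad to 0.782 for Acan (edgeR quasi-likelihood with Benjamini-Hochberg correction). In 1 of the 5, Chad, every Dmp1Cre.EfnB2f/f-labelled library then lay above every control, against 10.5% of all genes tested, and in 0 of the 5 below, against 9.11%. With 3 against 3 an exact permutation test cannot go below 0.10.

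Parent cross also differs between the libraries. Controls 1 and 2 came from 1 cross, although control 1 was high and control 2 was not. The third replicates of both labels had the same parents, and with the cross as a block the log2 fold change rests on these 2 mice. It was positive in 5 of 5 genes and in 50.6% of all genes, from 1.08 for Hapln1 (SE 1.69) to 1.82 for Comp (SE 1.40), with every adjusted p-value at 1.00 (edgeR quasi-likelihood with Benjamini-Hochberg correction). In the limma pipeline without the day block, which weights libraries by quality, the log2 fold changes of Acan, Comp, Chad and Hapln1 were also positive, 1.38, 0.56, 0.30 and 1.24 (adjusted p from limma 0.323, 0.276, 0.542 and 0.0759). The same pipeline without the weights gave -0.70, -0.11, -0.28 and -0.08, and no positive value among these 4.

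**Figure D3:**
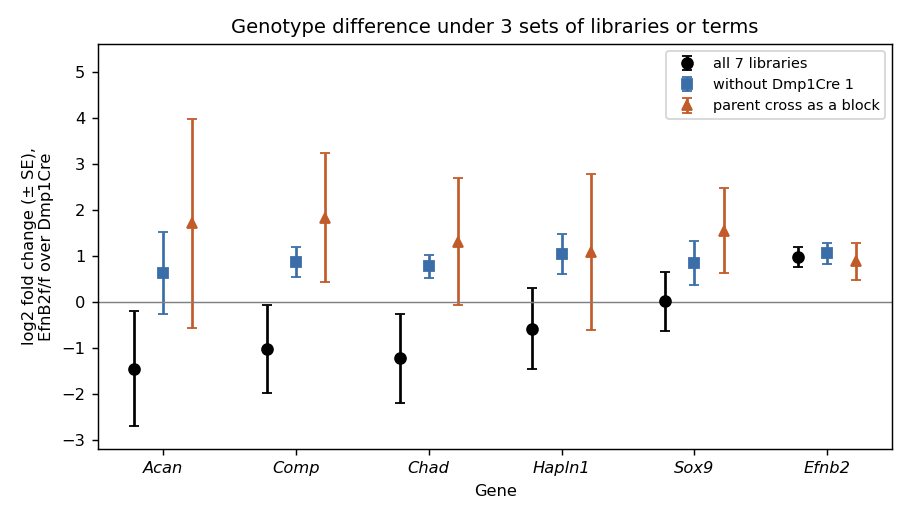
Log2 fold change (± SE) of Dmp1Cre.EfnB2f/f-labelled libraries over Dmp1Cre for the 5 cartilage genes tested and for Efnb2, with all 7 libraries (circles), without control 1 (squares) and with the parent cross as a block (triangles). The cartilage genes move from 0.00 or below with all libraries to between 0.63 and 1.03 without control 1, while Efnb2 stays at 0.96 and 1.05.

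The genes differed in how tightly they moved together. Within each library the ratio of Comp to Chad per length stayed between 1.27 and 1.98, also in control 1 (1.38). The ratio of Acan to Comp ran from 0.0189 in control 2 and 0.0204 in Dmp1Cre.EfnB2f/f-labelled library 1 to 0.148 in control 4, with 0.109 in control 1. Thus Acan was low relative to Comp in 2 libraries, 1 of each genotype. In Comp, Chad, Acan and Sox9 the second highest library was Dmp1Cre.EfnB2f/f-labelled library 3, and in Hapln1 it was library 2 of that group.

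Control 1 was the highest of the 7 libraries in all 5 genes tested, as it was in 14% of all genes. In 4 of the 5 it was more than 4 times the median of the other 6, a distance found in 0.431% of all genes tested. This comparison was chosen after the values had been seen. Other gene lists also had high levels in control 1. Over the 5 tendon genes Tnmd, Scx, Mkx, Thbs4 and Fmod, control 1 was the highest library in 5 of 5, and their summed level was 755 CPM there against 81.6 to 154 CPM in the other controls and 171 to 216 CPM in the Dmp1Cre.EfnB2f/f-labelled libraries. Most of the tendon sum in control 1 was Thbs4 (436 CPM) and Fmod (298 CPM). Over the 8 osteoblast and osteocyte genes it was the highest in 6, with 38974 CPM against 7857 to 19115 in the other controls and 8004 to 13310 in the Dmp1Cre.EfnB2f/f-labelled libraries. That sum is mainly Col1a1, which alone had 36428 CPM in control 1. Ibsp (441 CPM) and Phex (114 CPM) were not highest in control 1. The 5 skeletal muscle genes summed to 8605 CPM in control 1, to 8584 to 18782 CPM in the other controls and to 18036 to 29800.5 CPM in the Dmp1Cre.EfnB2f/f-labelled libraries. Of the marrow lists, the erythroid and neutrophil genes were lower in the Dmp1Cre.EfnB2f/f-labelled libraries by their summed level, and the B lineage genes were not. The 4 erythroid genes measured summed to 2690 to 7159 CPM in the Dmp1Cre.EfnB2f/f-labelled libraries and to 8176 to 23868 CPM in Dmp1Cre, with 10897 CPM in control 1, and the 5 neutrophil genes to 5962 to 7616 CPM and 8092 to 12958 CPM, so that neither list overlapped between the groups. The 5 B lineage genes overlapped, at 204 to 246 CPM and 156 to 266 CPM. In single genes of these cell type lists 0 passed an adjusted p-value of 0.05, and the lowest unadjusted p from edgeR was 0.409 for Mkx (tendon), 0.166 for Col1a1 (bone), 0.0247 for Myh4 (muscle), 0.0333 for Klf1 (erythroid), 0.0276 for Ltf (neutrophil) and 0.216 for Pax5 (B lineage). Per length the most abundant gene of each list was Thbs4, Col1a1, Acta1, Hba-a1, Ngp and Cd79b. The part of tendon, bone, muscle and marrow cells in the levels of the cartilage genes was not tested.

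The cartilage collagens split into an abundant and a scarce set. Col2a1, the main fibril collagen of cartilage, had 24.5 to 145 RPKM, Col11a1 53.6 to 163 RPKM and Col11a2 52.9 to 231 RPKM. Col9a1, Col9a2 and Col9a3, whose chains coat the collagen II fibril, stayed at or below 0.578 RPKM outside control 1, where they had 0.710, 2.76 and 1.89 RPKM. Col2a1 was thus 2.59 times the median of the other libraries in control 1, and Col9a2 5.62 times. Per length, the ratio of Acan to Col2a1 ran from 0.00208 in Dmp1Cre.EfnB2f/f-labelled library 1 to 0.0697 in control 1. The chondrocyte markers Cnmd and Ucma were near 0 outside control 1, with 3 to 8 and 0 to 1 counts, and had 45 and 9 counts in it. Col9a1 had 56 counts in control 1 and 2 to 11 in the other 6 libraries. Outside control 1 the counts of other chondrocyte markers were 2257 to 9725 for Col2a1, 22 to 307 for Acan, 10 to 42 for Hapln1 and 9 to 39 for Sox9, while Matn1, Matn3 and Snorc had 0 to 7.

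Of the 7 cartilage collagen genes 6 were tested, 2 with a positive and 4 with a negative log2 fold change, and 0 passed an adjusted p-value of 0.05 or an unadjusted one (edgeR quasi-likelihood). The lowest p was that of Col9a3, at -1.39 on the log2 scale (SE 0.61, unadjusted p = 0.0506, adjusted p = 0.511 by edgeR with Benjamini-Hochberg correction) and of -0.60 without control 1. The highest level was that of Col11a2. Without control 1, 5 of the 6 were positive, with a median of 0.30 against -0.22 with all libraries.

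**Figure D4:**
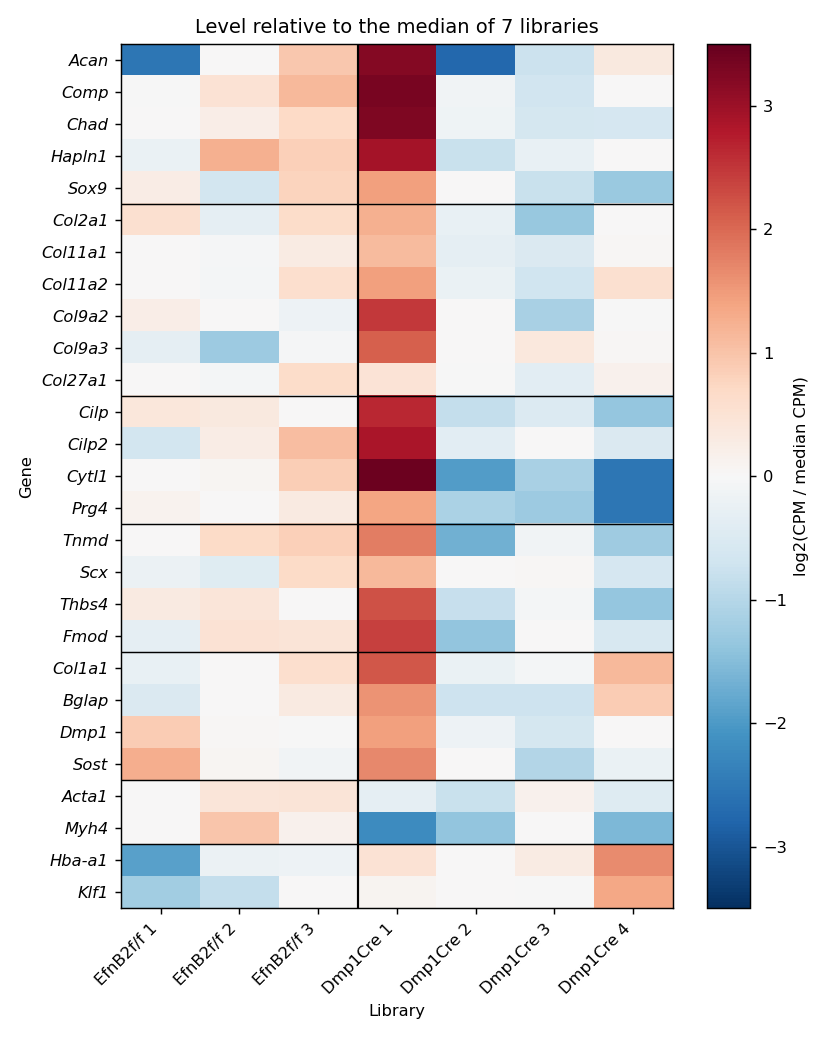
Level of each gene in each library as the log2 ratio of its CPM to the median of the 7 libraries, with Dmp1Cre.EfnB2f/f-labelled libraries (EfnB2f/f) left of the vertical line and Dmp1Cre libraries right of it. From top to bottom the blocks are the 5 cartilage genes tested, cartilage collagens, other cartilage matrix genes, tendon, bone, muscle and erythroid genes, and control 1 is the highest library of each of the 5 cartilage genes and the lowest for Myh4.

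Ihh itself was near 0, and the pathway around it was measured in 12 further genes of hedgehog, PTHrP and FGF receptor signalling. All 12 were tested, 7 with a positive and 5 with a negative log2 fold change, and 0 passed an adjusted p-value of 0.05 (1 at an unadjusted one, edgeR quasi-likelihood). Without control 1 they were 10 positive and 2 negative, with a median of 0.55 against 0.26. The PTH and PTHrP receptor Pth1r had the highest level per length. Gli1, a target of hedgehog signalling, had 6.61, 5.84 and 4.16 CPM in the Dmp1Cre.EfnB2f/f-labelled libraries and 7.05, 3.42, 2.90 and 3.10 CPM in the controls, so that controls 2 to 4 were the lowest. With control 1 left out, 10.5% of all genes tested had every control below every Dmp1Cre.EfnB2f/f-labelled library. Gli1 was named after its values had been seen. Its log2 fold change was 0.42 (SE 0.35), and 0.82 (SE 0.24) without control 1, with adjusted p-values of 0.614 and 0.375 by the same edgeR test.

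Of 11 transcription factors of chondrocytes 8 were tested, 7 with a positive log2 fold change, and 0 passed (1 at an unadjusted p-value under 0.05, edgeR quasi-likelihood). Without control 1 they were 6 positive and 2 negative, with a median of 0.45 against 0.37. The 1 gene was Zbtb20, at 0.59 (SE 0.22, unadjusted p = 0.0253, adjusted p = 0.511 by edgeR with Benjamini-Hochberg correction). Mef2c had the highest level per length, at 11.2 to 34.3 RPKM. Sox5 and Sox6 act with Sox9 on cartilage genes. In control 1, the library with the most Sox9, Sox5 had 3.99 CPM, within the 2.07 to 4.70 CPM of the other libraries. Sox6 had 121 CPM there, the lowest of the 7 libraries, against 146 to 294 CPM in the others, and was also named after its values had been seen.

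Of 14 other cartilage matrix genes 11 were tested, and 0 passed an adjusted or unadjusted p-value of 0.05 (edgeR quasi-likelihood). They were 2 with a positive and 9 with a negative log2 fold change, and 7 and 4 without control 1, with a median of -0.31 and of 0.03. Cilp, a matrix protein of the intermediate layer of cartilage, had 41.1, 39.5 and 31.2 CPM in the Dmp1Cre.EfnB2f/f-labelled libraries and 193, 17.5, 22.2 and 12.1 CPM in the controls. Cytl1, a secreted protein of chondrocytes, had 1.48, 1.57 and 2.71 CPM against 15.9, 0.380, 0.668 and 0.258 CPM. In both, control 1 was the highest library and controls 2 to 4 were below all 3 Dmp1Cre.EfnB2f/f-labelled libraries. With control 1 left out, 10.5% of all genes tested had this order, and both genes were named after their values had been seen. By the rule for this list, Xylt1 had the lowest unadjusted p (0.103, edgeR) and Chst11 the highest level per length.

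Of 18 relatives of the 10 genes, such as other matrilins, link proteins, thrombospondins and hyaluronan-binding proteoglycans, 12 were tested, 4 with a positive and 8 with a negative log2 fold change. Without control 1 this turned to 9 positive and 3 negative, and the median went from -0.15 to 0.63. With all libraries none passed an adjusted or an unadjusted p-value of 0.05 (edgeR quasi-likelihood), and the lowest unadjusted p was that of Ogn (0.0926). Thbs1 had the highest level per length. Matn4, unlike Matn1 and Matn3, was measured in every library, with 0.740, 1.30 and 3.96 CPM in the Dmp1Cre.EfnB2f/f-labelled libraries and 7.29, 0.380, 1.34 and 2.07 CPM in the controls. Among 5 genes of hypertrophic cartilage, which bone cells express too, 0 passed (0 at an unadjusted p-value under 0.05, edgeR, the lowest being 0.209 for Vegfa). They were 4 positive and 1 negative, and 5 positive without control 1. Spp1 had the highest level per length, and Col10a1, the collagen of hypertrophic chondrocytes, had 11.2 CPM in control 1 and 5.79 to 12.7 CPM in the other libraries.

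The genes whose log2 levels, centred on their mean over the 7 libraries, lay nearest to the mean profile of the 5 cartilage genes were Cilp2, 1500015O10Rik, Fbln7, Ssc5d and Igfbp6. Their root mean square difference from that profile was 0.267 to 0.353 on the log2 scale, where the median of all genes tested was 1.18. Taken singly, Comp and Chad were each other's nearest gene (0.232). The nearest gene was Matn4 for Acan (0.749), 1500015O10Rik for Hapln1 (0.243) and Ttc9 for Sox9 (0.229). All these profiles come from the same 7 libraries and share their depth.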

How the data were processed

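The authors mapped paired-end reads to mm10 with Rsubread, counted them per Entrez gene with featureCounts on its inbuilt annotation and deposited raw counts, with no normalization, filter or pooling. Versions and strand setting are not given in the sources used here, except bcl2fastq 2.17.1.14 in the submitters' processing notes. Genes that reached 0.65 CPM in 3 or more libraries numbered 16302. Ribosomal RNA, immunoglobulin segments, predicted and pseudogenes, unnamed genes, Y-linked genes and Xist were dropped, and 15098 were tested. The test was edgeR 4.0.16 (TMM, quasi-likelihood, robust; R 4.3.3) with genotype as the only term, adjusted by Benjamini-Hochberg with a threshold of 0.05. The study collected samples on more than one day and used day as a block. This could not be fitted, since which library belongs to which day is not given in the sources used here. Each SE was taken as the log2 fold change over the root of its F statistic. CPM are relative to all counts of a library, scaled by TMM. RPKM use the deposited gene lengths. For single levels an exact permutation test (two-sided, 35 splits) was used. The model fits were tested on simulated data. Alternatives were DESeq2 1.42.0, the quantile-normalized limma pipeline of the study (limma 3.58.1, prior count 2, robust trend) with and without quality weights, library size only, upper quartile, DESeq2 size factors, other filters, all gene classes, blocks of replicate number or parent cross, and leaving out each library. The 10 genes, all lists and the prior count, which the study does not state, were chosen with earlier results of these data known. The text names the 10 genes, Efnb2, in each list the gene with the lowest p and that with the highest level per length, and the genes nearest in profile. A gene that this rule would name is not reported here. Other list genes are marked or describe a tissue. Replicates are separate samples by their labels, and p-values measure the spread between these libraries. Positions are from RefSeq (GRCm38.p6), the build of mm10, and overlaps from GENCODE M21.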

Additional observations from a re-analysis of the deposited data

Results flagged for a closer look

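Among the 4 controls, the gap between the highest or lowest library and the next was compared with the whole range of the 4, and a share above Dixon's critical value at 95% counted as standing apart. This held for 29 of 72 levels and summed levels examined, and in 27 of the 29 the library was control 1. A rate of about 1 in 20, or 3.6, applies to normally distributed values of items chosen without regard to them. These levels are CPM, and some genes were named after their values had been seen or for their likeness in profile. The levels are also not independent, since they come from the same libraries. The 29 therefore cannot be compared with chance. Control 1 was the library for 7 of the 10 cartilage genes, with a share of the range of 0.879 for Acan, 0.960 for Comp, 0.882 for Ihh, 0.940 for Hapln1, 0.971 for Chad, 0.966 for Epyc and 0.975 for Snorc, and for their summed level (0.965). It was also the library for the summed levels of the other cartilage matrix genes (0.932), of hypertrophic cartilage (0.869) and of tendon (0.892).

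Among single genes of the lists, control 1 stood apart in Col9a1 (0.892), Col9a2 (0.893), Col9a3 (0.911), Cilp (0.944), Cytl1 (0.974), Thbs4 (0.868), Fmod (0.873), Gli1 (0.874), Spp1 (0.851) and Dmp1 (0.833). It also did in the genes named for their likeness in profile, where a high value there is part of the likeness: Cilp2 (0.954), 1500015O10Rik (0.947), Fbln7 (0.928), Ssc5d (0.897), Igfbp6 (0.998) and Ttc9 (0.920). In the summed level of skeletal muscle the library was control 3 (0.920), and in Klf1, an erythroid transcription factor, it was control 4 (0.943). Groups of 3 libraries were not examined in this way.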

How the results depend on the processing

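Of the 5 cartilage genes tested, 0 passed in any alternative that gave them an adjusted p-value. DESeq2 gave no adjusted p-value for Comp and Chad. The count over all genes was 0 in the main edgeR fit, 72 with DESeq2, 2246 with the limma pipeline without the day block, 0 with limma without quality weights and 1 with the replicate block. It was 0 to 2 with each library left out, and the 2 came without control 4 or without library 3 of Dmp1Cre.EfnB2f/f. At an unadjusted p-value under 0.05 the main 1459 became 4962 in the limma pipeline, 577 with the replicate block, 308 with the parent cross block and 433 to 2393 with a library left out. The limma pipeline called 14.9% of all genes and 0 of 8 osteoblast and osteocyte genes. In the other lists it called 1 of 6 (cartilage collagens), 3 of 8 (transcription factors), 3 of 12 (Ihh and PTHrP pathway), 3 of 11 (other matrix), 4 of 12 (relatives), 1 of 5 (hypertrophic), 2 of 5 (tendon), 4 of 5 (muscle), 2 of 4 (erythroid), 1 of 5 (neutrophil) and 2 of 5 (B lineage). The log2 fold changes of Acan, Comp, Hapln1 and Chad turned positive in that pipeline (1.38, 0.56, 1.24 and 0.30) and with the parent cross block (1.70, 1.82, 1.08 and 1.30, median of the 5 genes 1.54). The limma pipeline without quality weights, which differs from it in the weights alone, left the 4 genes negative (-0.70, -0.11, -0.08 and -0.28). The fit with the cross block rests on 1 mouse of each genotype, library 3 of Dmp1Cre.EfnB2f/f and control 3. These come from the only cross with both labels. The log2 ratio of their CPM was 1.70, 1.82, 1.09 and 1.30 in the same 4 genes. Sox9 took the other sign with DESeq2 size factors (-0.0195), no filter (-0.00035), all gene classes (-0.0079), DESeq2 (-0.0150), the limma pipeline (-0.38) and the replicate block (-0.15), and was not tested at 10 counts in every library. The labels do not say that the replicate numbers pair the mice, although the third replicates of both labels had the same parents. With log2 CPM centred within each genotype, same-numbered libraries correlated at -0.145, 0.0631 and -0.419. Of these, 0 of 3 correlated best with their own number, but so few libraries cannot settle whether the numbers pair mice. With the replicate block Acan was at 0.37.

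With each library left out in turn, the ranges were -1.39 to 0.84 for the median of the 5 genes, -2.27 to 0.63 for Acan, -1.39 to 0.85 for Comp, -0.91 to 1.03 for Hapln1, -1.56 to 0.77 for Chad and -0.36 to 0.84 for Sox9. The positive ends came without control 1. Sox9 was negative without library 1 or 3 of Dmp1Cre.EfnB2f/f or without control 2, 3 or 4. Efnb2 stayed positive (0.77 to 1.08) and passed with DESeq2 (adjusted p = 0.0331) and the limma pipeline (adjusted p = 0.0162). Depth limits Ihh, Matn1, Matn3, Epyc and Snorc, at 0 to 7 counts outside control 1.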
